A study of Homo sapiens with 7 samples.

Results

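Phosphorylation of histone H2A at T120 (pT120) was compared between HT1080 cells in which the kinase VRK1 was targeted by small interfering RNA (siVRK1) and cells given a control RNA (siControl). HT1080 is a human fibrosarcoma line. The regions were those called in the siControl library of VRK1 itself and in the libraries of unprecipitated input DNA of both siRNAs, on chromosomes 1 to 22, with at most 100 reads in each input. This gave 45131 regions out of 148917 listed for all 7 libraries of the study. None of them was chosen with a pT120 library.

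VRK1 is a nuclear serine/threonine kinase that acts on chromatin and is abundant in dividing cells. T120 lies in the C-terminal tail of H2A next to K119, the lysine that Polycomb repressive complexes ubiquitylate (ubK119), so that both marks sit on neighbouring residues. Cross-linked chromatin immunoprecipitated with an antibody against a mark is sequenced, and the share of reads that falls in a region measures the mark there relative to the rest of the genome.

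The series held 1 library for each antibody or input and siRNA: pT120, ubK119 and input under siControl and under siVRK1, and VRK1 under siControl. The pT120 libraries had 20687398 reads in siControl and 36030896 in siVRK1 cells, and the inputs had 26893384 and 33259254. VRK1 had 32040478 reads, and ubK119 had 40442651 and 29976126. VRK1 was not profiled after siVRK1, so its depletion is not checked here. With 1 library a side there is no replicate check and no test, and every comparison is one of libraries. The column names give both inputs the same index and the pT120 libraries different ones, but not what that index is, so the siRNA and any difference in preparation or sequencing cannot be told apart. Levels are given in RPM, the reads in the regions per 1000000 reads of the library, and the ratio is the siVRK1 level over the siControl level. Intervals are exact at 95% and cover counting error alone, because reads amplified by PCR and lacking molecular tags do not each stand for a molecule. RPM is a share of a library, so a lower share in these regions goes with a higher share elsewhere, and the amount of pT120 per cell was not measured.

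The regions fell into 3 classes. VRK1 regions outside input, 11462 in number and 2.79 Mb in all, overlapped no input region. Another 5177 VRK1 regions overlapped an input region, and 28492 input regions held no VRK1 region. The class outside input is the one in which VRK1 stood clearest above unprecipitated DNA, at 2.48 times (2.45 to 2.50) the siControl input, against 1.22 times (1.21 to 1.23) in the overlapping class and 0.672 times (0.668 to 0.676) in input regions without VRK1. All 3 values are partly fixed by how the classes were formed.

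Less of the pT120 library fell in these regions after siVRK1. In siControl cells 1.297% of the pT120 reads lay in the 45131 regions, and in siVRK1 cells 0.739%. The inputs had 1.61% and 1.74% and VRK1 had 1.70%, shares raised by the choice of regions from the lists of these libraries. The ubK119 share went the other way from pT120, from 0.997% to 1.53%. Over all regions the pT120 ratio was 0.570 (0.567 to 0.573), the input ratio 1.08 (1.07 to 1.08) and the ubK119 ratio 1.53 (1.52 to 1.54).

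The pT120 level was lower after siVRK1 in each of the 3 classes, with the lowest ratio in VRK1 regions outside input and the highest in VRK1 regions overlapping input. In VRK1 regions outside input, 2704 RPM in siControl stood against 1251 RPM in siVRK1 cells, with a ratio of 0.463 (0.457 to 0.468). In VRK1 regions overlapping input, 3704 RPM stood against 2307 RPM, with a ratio of 0.623 (0.617 to 0.629). Input regions without VRK1 had 6566 RPM and 3832 RPM, with a ratio of 0.584 (0.579 to 0.588), so regions with no VRK1 region also had less than 0.6 of the siControl level. When the ratio of all 33412 input-list regions, 0.605, is taken as the zero point, the ratios become 0.765, 1.03 and 0.965, and the direction turns for the VRK1 regions that overlap input. That scale contains many of the overlapping and input regions themselves.

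**Figure D1:**
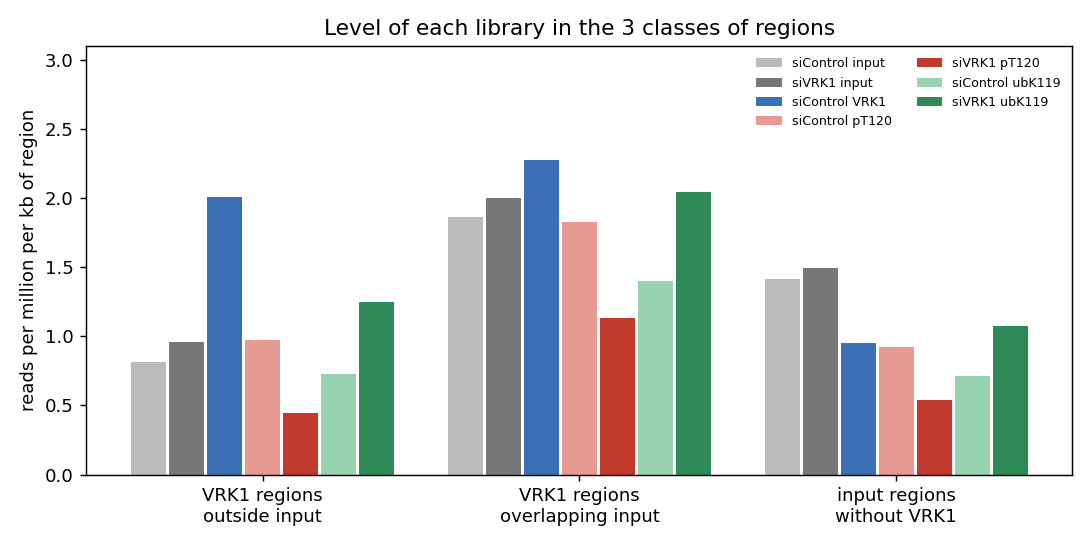
Bars give the level of each of the 7 libraries (RPM per kb of region, vertical axis) in the 3 classes of regions; there is 1 library per bar and no error bar. In VRK1 regions outside input, pT120 went from 0.970 in siControl to 0.449 in siVRK1 cells, below both inputs, while ubK119 went from 0.726 to 1.25.

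Set beside unprecipitated DNA, pT120 in VRK1 regions outside input stood at 1.20 times (1.18 to 1.21) the siControl input before and 0.468 times (0.463 to 0.473) the siVRK1 input after siVRK1. In VRK1 regions overlapping input it went from 0.978 times (0.969 to 0.987) to 0.568 times (0.563 to 0.573), and in input regions without VRK1 from 0.651 times (0.646 to 0.655) to 0.360 times (0.357 to 0.362). Only the first class was above its input in siControl cells, and all 3 were below it in siVRK1 cells. The other classes hold or overlap regions called in the inputs, and the first leaves them out. The order of the classes over input is therefore partly fixed by how they were formed. The inputs themselves differed, with ratios of 1.18 (1.17 to 1.19), 1.07 (1.06 to 1.08) and 1.06 (1.05 to 1.06), a change opposite in direction to that of pT120. Divided by these, the pT120 ratios were 0.392, 0.581 and 0.553.

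The lower ratio at VRK1 regions outside input than at input regions without VRK1 was found on 22 of 22 chromosomes. By chromosome the first class stood at a median of 0.807 times the ratio of the other, from 0.616 to 0.895. For VRK1 regions overlapping input the order varied between chromosomes: their ratio was below that of input regions without VRK1 on 7 chromosomes and above it on 15. The difference between the classes was also present at like levels of input DNA, a comparison chosen after the data were seen. Regions were placed in 5 groups of about equal size by the mean of both inputs per kb. In the lowest group VRK1 regions outside input had a ratio of 0.451 (0.444 to 0.458) and input regions without VRK1 0.497 (0.474 to 0.521). In the middle group the values were 0.487 (0.466 to 0.509) and 0.565 (0.556 to 0.574), and in the highest 0.484 (0.438 to 0.534) and 0.634 (0.625 to 0.643). In all 5 groups VRK1 regions outside input were lower than input regions without VRK1, with intervals that did not overlap. VRK1 regions overlapping input had ratios of 0.418, 0.443, 0.496, 0.571 and 0.671 from the lowest group to the highest. They were thus below VRK1 regions outside input in the lowest 2 groups and above input regions without VRK1 in the highest group only. The input ratio still differed in the lowest group, at 1.28 in VRK1 regions outside input and 1.97 in input regions without VRK1, and was closer in the highest, at 0.954 and 0.933. The VRK1 regions were called in a siControl library, and what part that has in the lower ratio was not tested.

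Single regions held few reads. The median VRK1 region outside input had 4 pT120 reads in siControl and 3 in siVRK1 cells, although the siVRK1 library was deeper. No pT120 read fell in 250 of the 11462 regions (2.18%) in siControl and in 659 (5.75%) in siVRK1 cells, where 3 reads, the limit that a count of 0 allows, correspond to 0.145 and 0.0833 RPM. In input regions without VRK1 the numbers of such regions were 878 and 1276 of 28492. Over all classes the deeper library thus had the larger number of regions without a read, 2003 against 1151.

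Ratios of single regions were computed for those with at least 10 pT120 reads over both libraries, with 0.5 read added to each count. This left 3947 VRK1 regions outside input (34.4%), 4251 overlapping input (82.1%) and 11020 input regions without VRK1 (38.7%). Across all 19218, 44.1% had at most 0.5 of the siControl level and 3.67% at least 2 times that level. VRK1 regions outside input were above this share of lower regions, with 2140 of 3947 (54.2%), against 1658 of 4251 (39%) and 4680 of 11020 (42.5%) in the other classes. Regions at least 2 times higher numbered 82 (2.08%), 79 (1.86%) and 544 (4.94%). The median log2 ratio was -1.04 in VRK1 regions outside input and -0.80 in each of the other classes. With a minimum of 20 reads the share of lower regions was 43.8%, 30.1% and 23.9%, so that the last fell by more than 1.5 times.

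The interval of the ratio lay wholly below 1 for 21.5% of all regions and wholly above 1 for 1.09%. For VRK1 regions outside input the counts were 940 (23.8%) and 12 (0.304%), for VRK1 regions overlapping input 1296 (30.5%) and 58 (1.36%), and for input regions without VRK1 1901 (17.3%) and 139 (1.26%). The overlapping regions hold more reads each, which narrows their intervals. Regions called with the ubK119 antibody, measured in the same way, had 31.5% at most 0.5 and 9.38% at least 2 times the siControl level, with intervals wholly below 1 for 16.6% and wholly above 1 for 3.26%.

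**Figure D2:**
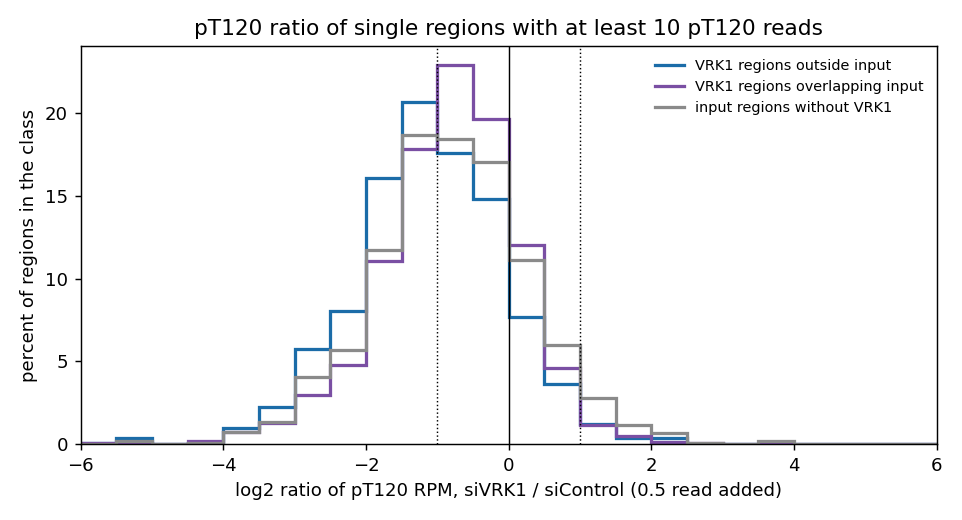
Lines give the percent of regions of each class (vertical axis) by the log2 ratio of siVRK1 to siControl pT120 RPM (horizontal axis, steps of 0.5), for regions with at least 10 pT120 reads; dotted lines mark a fold of 2. Each class has its bulk below 0, and the VRK1 regions outside input lie furthest to the left, with a median of -1.04.

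The other library pairs moved in the opposite direction to the pT120 ratio of a region. In the 8478 regions with at most 0.5 of the siControl pT120 level, the ubK119 ratio was 1.84 (1.82 to 1.85) and the input ratio 1.23 (1.22 to 1.24). In the 10035 regions in between they were 1.25 (1.24 to 1.26) and 0.954 (0.947 to 0.960). In the 705 regions at least 2 times higher they were 0.819 (0.791 to 0.847) and 0.747 (0.724 to 0.769). Of these 705 regions, 544 were input regions without VRK1. In the 82 VRK1 regions outside input with a pT120 ratio of at least 2, the ubK119 ratio of 0.954 (0.863 to 1.05) and the input ratio of 0.980 (0.872 to 1.102) were both within counting error of 1. Over single regions the log2 ratios of pT120 and ubK119 had a Pearson r of -0.33 in VRK1 regions outside input (n = 3087), -0.49 in those overlapping input (n = 4185) and -0.35 in input regions without VRK1 (n = 9456), values that few reads per region limit. The points share libraries, depth and the copy number of the DNA. The part of the input difference in the pT120 ratio was not tested.

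By chromosome the pT120 ratio was below 1, with its interval, on all 22. Chromosome 17 had the lowest, with 420 RPM under siControl and 178 RPM under siVRK1, with a ratio of 0.424 (0.411 to 0.438). Chromosome 18 had the highest, 2284 RPM against 1597 RPM, with a ratio of 0.699 (0.691 to 0.708). Chromosome 15, at 0.460 (0.407 to 0.520), and chromosome 19, at 0.482 (0.465 to 0.4998), followed chromosome 17. The interval of chromosome 15 overlaps those of both chromosomes 17 and 19, so chromosome 17 was not separated from chromosome 15 as the lowest. Chromosome 16 at 0.690 (0.662 to 0.719) was not separated from chromosome 18.

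Chromosomes 3 and 18 held 18.1% and 17.6% of the siControl pT120 reads in the regions, more than any other. Chromosome 3 lay near the middle, with a ratio of 0.555 (0.548 to 0.562). On chromosome 18 the class mattered: VRK1 regions outside input had a ratio of 0.643 (0.613 to 0.675), those overlapping input 0.631 (0.622 to 0.641) and input regions without VRK1 0.889 (0.869 to 0.910). Across chromosomes VRK1 regions outside input ranged from 0.354 (0.265 to 0.470) on chromosome 22, with only 38 regions, to the value on chromosome 18. The ratio in the class overlapping input reached 0.895 on chromosome 22, where its interval (0.780 to 1.03) includes 1.

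**Figure D3:**
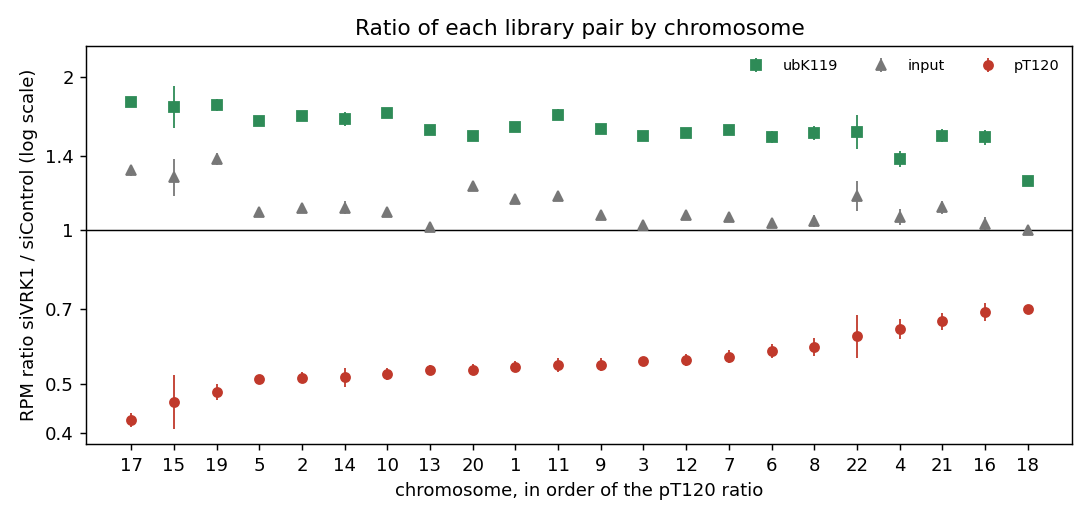
Points give the RPM ratio of siVRK1 to siControl (vertical log axis) of the pT120, input and ubK119 pairs on each chromosome (horizontal axis, in order of the pT120 ratio), with 95% intervals of counting error. All pT120 ratios lie between 0.424 and 0.699 and all ubK119 ratios above 1, and the input ratio is highest on chromosome 19, at 1.38.

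The ubK119 and input ratios were ordered against the pT120 ratio over chromosomes. On chromosome 17 the ubK119 ratio was 1.78 (1.74 to 1.83) and the input ratio 1.31 (1.28 to 1.34). On chromosome 18 they were 1.25 (1.24 to 1.26) and 0.9998 (0.990 to 1.01). Over the 22 chromosomes the log2 pT120 ratio had r = -0.84 and Spearman's rho = -0.87 with the log2 ubK119 ratio, and r = -0.66 and rho = -0.59 with the log2 input ratio. These are descriptions of 6 libraries, in which chromosomes are not replicates.

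Windows of 10 Mb showed where along the chromosomes the level differed. Of 293 windows with regions, 179 had at least 500 pT120 reads over both libraries. The ratio was below 1 in 178 of these, with its interval in 172, and at most 0.5 in 89. Its median was 0.501, and 1 in 10 windows lay below 0.402 and 1 in 10 above 0.750. The interval included 1 in 6 windows and lay above 1 in 1.

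The lowest window, on chromosome 1 from 160 to 170 Mb, rested on a single region. It had a ratio of 0.295 (0.253 to 0.343), and 74.6% of its siControl pT120 reads came from chr1:165721699-165721916, without which the ratio was 0.455. That region, singled out after its values were seen, had the most siControl pT120 reads of all regions: 382 in siControl (18.5 RPM) against 160 in siVRK1 cells (4.44 RPM), with a ratio of 0.240 (0.199 to 0.290). It held 499 VRK1 reads, and ubK119 went from 189 to 485 reads, with a ratio of 3.46 (2.92 to 4.12). Only 23 and 5 input reads lay there, and over them pT120 stood at 21.6 times (14.2 to 34.5) in siControl and 29.5 times (12.4 to 92.2) in siVRK1 cells. Relative to input a lower level is therefore not shown at this region.

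The next windows in order lay at the ends of chromosomes as far as the listed regions reach. The first 10 Mb of chromosome 19 had 48.0 RPM under siControl and 15.6 RPM under siVRK1, with a ratio of 0.325 (0.292 to 0.360), and the window from 130 Mb on chromosome 12 had a ratio of 0.339 (0.289 to 0.396). Their input ratios were 1.62 (1.51 to 1.74) and 1.55 (1.401 to 1.71); the first is the highest of the 179 windows. The 3 highest windows were on chromosome 14 from 10 to 20 Mb, with 1.19 (1.005 to 1.404), chromosome 5 from 40 to 50 Mb, with 0.972 (0.885 to 1.07), and chromosome 3 from 90 to 100 Mb, with 0.965 (0.848 to 1.099). From general knowledge of the karyotype, these windows hold or border a centromere. Their input ratios were 0.725 (0.628 to 0.837), 0.792 (0.730 to 0.860) and 0.695 (0.622 to 0.777), below 1 where those on chromosomes 19 and 12 were above it. Chromosome ends were not all alike. The first 10 Mb of chromosomes 9 and 18 had pT120 ratios of 0.602 and 0.723 and input ratios of 0.942 and 0.979. No contrast of ends with centromeres is drawn from windows picked by their ratio. Without its top region the window on chromosome 14 had a ratio of 1.29, that on chromosome 5 one of 0.957 and that on chromosome 3 one of 1.01.

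Set over the input of the same siRNA, pT120 in the first 10 Mb of chromosome 19 went from 1.14 to 0.228 times, and on chromosome 12 from 0.936 to 0.205 times. On chromosome 14 it went from 0.679 to 1.11 times and on chromosome 5 from 0.794 to 0.974 times. These windows were chosen by their pT120 ratio, so the values are a description.

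**Figure D4:**
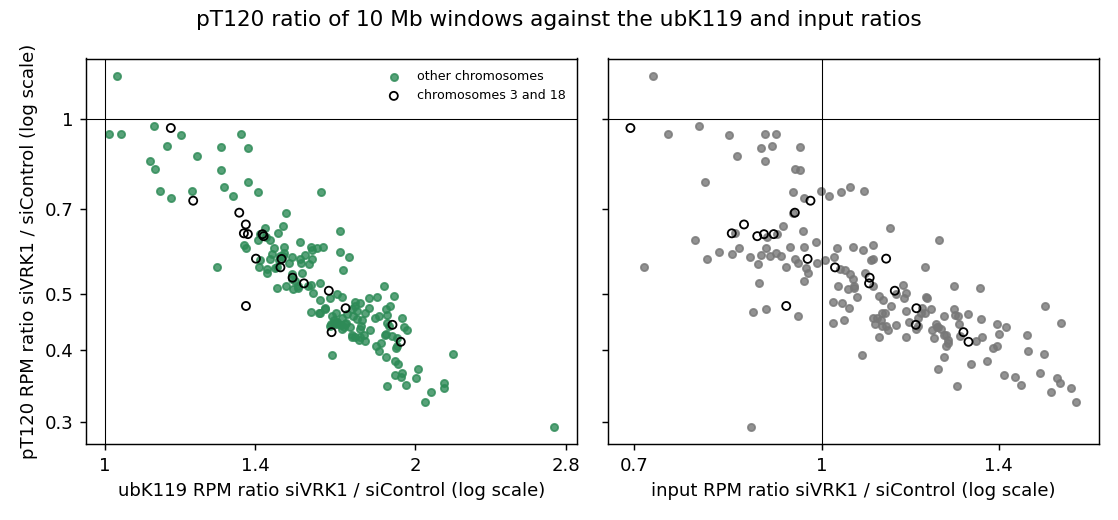
Points are the 179 windows of 10 Mb with at least 500 pT120 reads; the pT120 RPM ratio of siVRK1 to siControl (vertical log axis) is plotted against the ubK119 ratio (left) and the input ratio (right), with open circles for chromosomes 3 and 18. The ubK119 ratio is above 1 in all 179 windows and the input ratio in 118, and the pT120 ratio falls as either rises.

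Over these windows the log2 pT120 ratio had r = -0.90 and rho = -0.89 with the log2 ubK119 ratio, and r = -0.75 and rho = -0.80 with the log2 input ratio. Without chromosomes 3 and 18 the first coefficient was -0.90 over 160 windows. The ubK119 ratio ranged from 1.01 to 2.73 and the input ratio from 0.695 to 1.62, so that the pT120, ubK119 and input pairs each varied along the genome in a related order. Whether this order comes from the DNA of the inputs or from the marks was not tested.

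Regions were also split by distance from the last listed region of a chromosome, which is its high-coordinate end alone. The split was chosen after the windows were seen. Within 5 Mb of that end, pT120 had 908 RPM under siControl and 409 RPM under siVRK1, with a ratio of 0.450 (0.441 to 0.460). From 5 to 10 Mb the ratio was 0.512 (0.497 to 0.528), from 20 to 40 Mb 0.578 (0.569 to 0.587), and beyond 40 Mb 0.588 (0.584 to 0.592). The group beyond 40 Mb includes the low-coordinate ends, among them the first 10 Mb of chromosome 19. The split therefore does not set chromosome ends against the interior. The input ratio went from 1.28 within 5 Mb to 1.06 beyond 40 Mb and the ubK119 ratio from 1.76 to 1.501. In VRK1 regions outside input the step was smaller, from 0.407 (0.390 to 0.424) within 5 Mb to 0.478 (0.471 to 0.485) beyond 40 Mb. The difference between these steps was not tested.

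How the pT120 ratio ran with the level of VRK1 depended on the input used to measure that level. In VRK1 regions outside input, the pT120 ratio was 0.504 (0.494 to 0.515) where VRK1 was 1 to 2 times the siControl input, 0.459 (0.451 to 0.468) at 2 to 4 times and 0.390 (0.378 to 0.402) at 4 times or more. When VRK1 was set over the siVRK1 input, the values were 0.454 (0.446 to 0.463), 0.470 (0.460 to 0.479) and 0.472 (0.454 to 0.491), with no fall. The input ratio moved across these steps in opposite directions, from 0.822 to 3.11 with the siControl input and from 1.44 to 0.488 with the siVRK1 input. Input regions without VRK1 showed the same change of order, from 0.647 (0.641 to 0.652) under 1 to 0.370 (0.346 to 0.396) at 4 or more over the siControl input, and from 0.556 (0.551 to 0.561) to 0.7999 (0.706 to 0.907) over the siVRK1 input.

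In VRK1 regions overlapping input the direction held with either input. The ratio went from 0.790 (0.777 to 0.804) to 0.317 (0.295 to 0.341) over the siControl input and from 0.647 (0.636 to 0.658) to 0.339 (0.305 to 0.376) over the siVRK1 input, where the highest step held 33 regions and 18.5 of its 47.5 RPM in siControl came from the region on chromosome 1 described above. Placement by siControl input reads alone gave a like slope: VRK1 regions outside input had a ratio of 0.394 (0.382 to 0.406) in the lowest of 5 groups and 0.517 (0.504 to 0.530) in the highest. The length of the region made little difference, with ratios between 0.453 and 0.493 over 5 groups of length from 200 to 1107 bp.

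**Figure D5:**
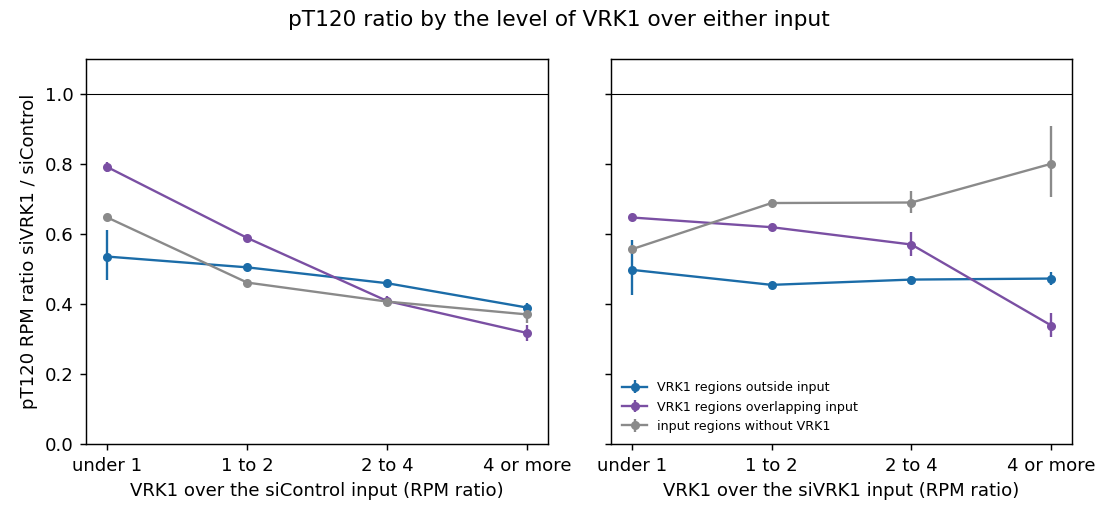
Points give the pT120 RPM ratio of siVRK1 to siControl (vertical axis) of the 3 classes in steps of the VRK1 level over the siControl input (left) or the siVRK1 input (right), with 95% intervals of counting error. On the left each class falls with the VRK1 level; on the right the VRK1 regions outside input stay between 0.454 and 0.497 and the input regions without VRK1 rise.

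Among VRK1 regions outside input, the 6 with the highest VRK1 level were followed singly, by position in hg19. At chr16:3124472-3124876, 404 bp, VRK1 had 138 reads (4.31 RPM), and pT120 had 111 reads in siControl (5.37 RPM) and 53 in siVRK1 cells (1.47 RPM), with a ratio of 0.274 (0.194 to 0.384). At chr12:127861079-127861424 the pT120 reads went from 116 (5.61 RPM) to 42 (1.17 RPM), with a ratio of 0.208 (0.142 to 0.298), the lowest of the class among regions with at least 40 reads. The inputs had 7 and 10 reads in the first and 5 and 5 in the other. These are the 2 highest levels of the 6, against a median of 4 siControl reads per region in the class.

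The other 4 had between 16 and 32 siControl reads and wider intervals. At chr5:1227449-1228556, a region of 1107 bp, 32 reads stood against 32, with a ratio of 0.574 (0.341 to 0.968). At chr1:17031017-17031939, 21 reads stood against 18, with a ratio of 0.492 (0.247 to 0.970), and at chr19:513944-514797, 24 against 11, with a ratio of 0.263 (0.116 to 0.558). The region chr18:6526985-6527839 had 16 and 30 reads, and its ratio of 1.08 (0.568 to 2.11) was within counting error of 1. The interval thus lay wholly below 1 at 5 of the 6, against 23.8% of the tested VRK1 regions outside input and 21.5% of all tested regions. These 6 hold more reads than most regions, which narrows their intervals, so nothing particular to them is read from the count.

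At least 40 pT120 reads were found in 28 VRK1 regions outside input, 1340 overlapping input and 225 input regions without VRK1. The minimum is a sum over both libraries, of which the siVRK1 library is the deeper, so a region high only after siVRK1 passes more easily, and nothing about the classes is read from these numbers. Regions at the extremes are given as a description, since the ratio itself chose them.

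At the low end of VRK1 regions outside input, after the region on chromosome 12, stood chr2:177127313-177127525, with 31 and 12 reads and a ratio of 0.222 (0.104 to 0.445), and chr2:232544422-232544632, with 58 and 23 reads and 0.228 (0.134 to 0.375). Their ubK119 ratios were 4.12 (2.38 to 7.46) and 3.22 (2.005 to 5.30). In the overlapping class the lowest were chr9:66457995-66458624, with 36 and 8 reads and a ratio of 0.128 (0.0512 to 0.279), chr13:114453707-114454674, with 35 and 9 reads and 0.148 (0.0624 to 0.313), and chr1:21973733-21974109, with 54 and 15 reads and 0.159 (0.0836 to 0.287). The ubK119 ratio was above 1 with its interval in all 5. In the region on chromosome 9 the inputs differed as well, with 6 and 34 reads.

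Among input regions without VRK1, the lowest was chr5:856409-857276, with 29 and 12 reads and a ratio of 0.238 (0.1104 to 0.480). It was followed by chr16:82719953-82720824, with 25 and 15 reads and 0.344 (0.169 to 0.679), and chr18:10051202-10052046, with 47 and 29 reads and 0.354 (0.215 to 0.575). The ubK119 ratio was 1.59 (1.05 to 2.44) in the region on chromosome 5. In those on chromosomes 16 and 18, at 1.62 (0.771 to 3.45) and 1.11 (0.706 to 1.75), it was within counting error of 1.

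At the high end, chr18:9440673-9441038 was the VRK1 region outside input with the largest ratio, 5.60 (2.02 to 21.6), from 4 and 39 reads, and chr16:33973231-33973448 had 8 and 32 reads and a ratio of 2.297 (1.04 to 5.77). The third, on chromosome 8, had a ratio of 1.81 whose interval (0.951 to 3.68) includes 1. In the overlapping class 2 regions lay close together on chromosome 20: chr20:29638436-29638884 had 14 and 72 reads and a ratio of 2.95 (1.65 to 5.67), and chr20:29650225-29650756 had 20 and 112 reads and 3.22 (1.99 to 5.46). There ubK119 was lower after siVRK1, with ratios of 0.484 (0.243 to 0.912) and 0.239 (0.134 to 0.403). Another on chromosome 8 had a ratio of 3.51 (1.72 to 8.08). Among input regions without VRK1, chr19:27856843-27857319 had 6 and 35 reads, with a ratio of 3.35 (1.39 to 9.74), chr16:33964856-33965056 had 5 and 35 reads, with a ratio of 4.02 (1.57 to 13.1), and a region on chromosome 8 had 4.95 (2.38 to 11.9). The ubK119 ratios of these last 3 were 0.360, 0.231 and 0.225, each with an interval below 1. The region chr16:33964856-33965056 had 0 reads in the siControl input and 14 in the siVRK1 input.

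The limit of 100 input reads removed 585 of 45716 regions. Just inside it, 67 regions with 91 to 100 reads in the higher input had a pT120 ratio of 0.638, and just outside it 58 regions with up to 110 reads had 0.691.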

How the data were processed

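The deposited lists hold the regions of each of 7 libraries on hg19 and, per the file headers, a raw read count for every library and region, not normalized. Peak heights were deposited as a signal, the most extended reads in a window, and as RPM. Height divided by RPM gave the library totals. The authors' p-value per peak was not used. The deposited percent of a region covered by another list's peaks, where above 0, marked regions in a pT120 list. CASAVA 1.8.2, Bowtie 0.12.8 and Partek appear, without roles, in the submitters' processing notes. Peak settings and duplicate handling were not stated there.

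Overlap meant at least 1 bp. Of overlapping regions of both inputs the longest was kept. Reads were summed per class, divided by the library totals and compared as a ratio with an exact conditional binomial 95% interval (Python 3.11.15, SciPy 1.17.1). The interval was checked only on independent counts simulated under the model it assumes. That check does not cover duplicate reads or differences between libraries. No p-value was computed, since there is 1 library a side and regions are not replicates. A region was called past a fold of 2 with 0.5 read added and at least 10 pT120 reads; 0.5 read was also added where VRK1 was set over input in single regions. The regions and splits were chosen with earlier results of these data known. Named regions are the 6 highest in VRK1 outside input, the 3 lowest and 3 highest ratios per class with at least 40 reads, the 3 lowest and highest windows of 10 Mb with at least 500 reads, and the extreme chromosomes. Coordinates are as deposited, and the start base, 0 or 1, is not given. The annotation at hand is of another build, so no gene is named and no sequence printed.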

Additional observations from a re-analysis of the deposited data

How the results depend on the processing

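No paired analysis was possible because each condition has 1 library. The classes are given in the order VRK1 regions outside input, overlapping input, and input regions without VRK1, with main ratios of 0.463, 0.623 and 0.584. Of 70 alternatives 28 stayed within the interval or within 1.5 times the count, and 1 turned the direction: divided by the ratio of all input-list regions, the ratios were 0.765, 1.03 and 0.965. Divided by the input ratio of the same regions they were 0.392, 0.581 and 0.553, as medians of single regions 0.486, 0.574 and 0.574, and without chromosomes 3 and 18, added after the data were seen, 0.441, 0.633 and 0.541. With the siControl input list alone the last 2 classes had 0.672 and 0.704, and with the siVRK1 input list alone the first and last had 0.485 and 0.512. An overlap of at least 50% gave 0.478 and 0.634 for the VRK1 classes. A limit of 30 input reads gave 0.587 and 0.578 for the last 2, leaving out the 1% of regions with the most reads 0.610 and 0.566, and for the overlapping class no limit gave 0.757 and chromosomes X and Y 0.630. The highest step of VRK1 over input went from 0.390 to 0.472 with the siVRK1 input. The cause of these shifts was not tested.

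Counts past a fold of 2 follow the minimum of reads, since fewer regions are tested. Lower regions numbered 2140, 1658 and 4680, without a minimum 6334 in the first and 12970 in the last class, with a minimum of 20 reads 175, 826 and 394, and with 10 reads in each input 372 in the first and 2487 in the last. Higher regions numbered 82, 79 and 544, and without a minimum 472 in the first and 1909 in the last. With 20 reads they numbered 12, 51 and 139, and with 10 reads in each input 11 in the first and 273 in the last. At a fold of 1.5, out of 3947, 4251 and 11020 regions tested, 2704, 2464 and 6364 were lower and 210, 234 and 1128 higher. No share over all classes was computed at that fold, so nothing about the classes is read from it. Lower regions outnumbered higher ones in each of these settings. Lower regions were 55.3%, 42.6% and 45.5% of those tested without a minimum, against 47.7% over all classes. With 20 reads they were 43.8%, 30.1% and 23.9%, against 29.1%, and with 10 reads in each input 56.2%, 36.9% and 42.3%, against 41.3%. Higher regions were 4.12%, 2.20% and 6.70% without a minimum, against 5.53%. With 20 reads they were 3%, 1.86% and 8.44%, against 4.21%, and with 10 reads in each input 1.66%, 1.86% and 4.64%, against 3.48%.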

Other observations

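The authors' pT120 lists hold 6665 regions for siControl and 42461 for siVRK1 cells. The pT120 ratio at peaks of these lists that lie outside the regions used here was not computed. Most of the regions used here were in neither pT120 list. Of the 45131 regions, 40144 (88.9%) overlapped no pT120 peak, held 69.9% of the siControl pT120 reads in the regions and had a ratio of 0.503. A further 1575 regions lay in both lists, with a ratio of 0.696, while 1055 were in the siControl list only and 2357 in the siVRK1 list only. The siVRK1 library was deeper, and membership in a pT120 list fixes much of the ratio, so no direction is drawn from the last 2 groups. Of the 1575 regions in both lists, 1309 were VRK1 regions overlapping input, 25.3% of that class against 3.49% of all 45131. Regions of that class held a median of 10 siControl pT120 reads, against 5 over all classes. What part that has in the share was not tested.

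The 585 regions over the limit of 100 input reads had 9875 RPM of pT120 under siControl and 7978 RPM under siVRK1, with a ratio of 0.808.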
